A study of Mus musculus with 9 samples.

Results

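Transcripts of 10 genes that are used as markers of adipocytes were followed in RNA from islet preparations of the pancreas, whose islets hold the beta cells that make insulin. The 10 genes were Adipoq, Cfd, Retn, Lep, Plin1, Cidec, Fabp4, Lpl, Pparg and Car3. They were chosen by name as genes of fat tissue, with earlier results of these data known. They were matched to the 56941 gene rows of the count table by gene symbol. All 10 were found. The islets came from wild-type (WT) male C57BL/6J mice, aged 15 weeks when the diets began and fed for 9 months. A low fat diet (LFD, 10% fat) was given to the control group of 3 samples, a high fat diet (HFD, 60% fat) to 2 samples and a ketogenic diet (KD, 89.9% fat) to 4 samples. The labels name neither individual animals nor pooling, so p-values measure only the spread between these samples, which may be technical.

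Adipocytes store triglyceride in a large droplet coated by proteins such as perilipin 1, take up fatty acids that lipoprotein lipase frees from circulating lipoproteins, and secrete hormones such as adiponectin and leptin. The nuclear receptor PPARγ together with C/EBP factors drives their differentiation. Mouse pancreas is bordered by fat, and adipocytes can also lie between its lobules. Several genes on the list are not restricted to adipocytes, since Fabp4 is also made by capillary endothelium and macrophages, Lpl by muscle and macrophages, and Car3 by skeletal muscle and liver.

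The list split into a group of 6 genes at or near 0 and a group of 4 that were measured in every library. Adipoq, Cfd, Retn, Lep, Plin1 and Cidec held 91 counts in all 9 libraries together and did not pass the filter on low counts. Fabp4, Lpl, Pparg and Car3 passed it and held 10019 counts, which was 99.1% of the counts of the 10 genes. The genes that define adipocytes most closely were thus at or near 0, and in these preparations the list was carried by the other 4 genes. Library totals ran from 15513502 to 26588390 counts.

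The 250 bases ahead of a transcription start are shown for Adipoq, Plin1 and Cidec, a hormone and a pair of droplet proteins from the group near 0, because C/EBP factors and PPARγ are known to act on fat genes. They are read in the direction of transcription from RefSeq on GRCm38.p6, and capitals mark matches to TTGCNNAA, a pattern bound by C/EBP factors. Adipoq lies at chr16:23146286-23146535 on the plus strand, Plin1 at chr7:79732777-79733026 on the minus strand, and the start of Cidec shown at chr6:113434765-113435014 on the minus strand.
Adipoq: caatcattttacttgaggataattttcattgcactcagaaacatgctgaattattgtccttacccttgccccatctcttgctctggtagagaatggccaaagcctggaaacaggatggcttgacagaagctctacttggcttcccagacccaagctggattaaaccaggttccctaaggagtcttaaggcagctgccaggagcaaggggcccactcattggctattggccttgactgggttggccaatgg
Plin1: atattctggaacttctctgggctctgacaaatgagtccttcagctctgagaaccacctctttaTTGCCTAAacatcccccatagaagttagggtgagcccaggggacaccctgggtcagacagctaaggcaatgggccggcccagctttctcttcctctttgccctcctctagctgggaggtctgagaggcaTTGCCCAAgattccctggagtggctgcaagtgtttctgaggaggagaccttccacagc
Cidec: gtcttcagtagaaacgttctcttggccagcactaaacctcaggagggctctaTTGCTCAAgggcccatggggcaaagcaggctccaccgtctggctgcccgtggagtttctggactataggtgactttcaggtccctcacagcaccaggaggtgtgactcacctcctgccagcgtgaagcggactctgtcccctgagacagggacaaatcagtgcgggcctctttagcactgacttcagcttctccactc
In Plin1 the matches began 187 and 58 bases ahead of the start, and in Cidec 198 bases ahead. For 7 of the 10 genes 10 promoters were found, some genes having several starts. TTGCNNAA was present on either strand in 4 of the 10 promoters, 1 each of Cidec, Lep, Plin1 and Pparg, against 9.56% of the 32851 promoters of this length searched. The letters AGGTCA, the repeated core of the element that PPARγ binds with its partner RXR, occurred in 2 of the 10 promoters, both of Pparg, against 14.0% of all promoters. The full direct repeat AGGTCANAGGTCA, which contains that shorter pattern, occurred in 0 of the 10 and in 0.0335% of all promoters. TATAAA, the core of the TATA box, occurred in 1 of the 10, a promoter of Pparg, against 12.4% of all promoters. A match is a run of letters and not a measured binding site.

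Among the secreted factors, Adipoq encodes adiponectin, the most abundant adipocyte hormone. It had 1, 10 and 2 counts in LFD replicates 1 to 3, 0 and 0 counts in the HFD libraries, and 3, 0, 0 and 0 counts in KD replicates 1 to 4. Counts of Cfd, which encodes the complement protease adipsin, were 2, 22 and 0 in LFD, 0 and 5 in HFD, and 2, 0, 0 and 0 in KD. Both genes were highest in LFD replicate 2. For Adipoq every LFD library had a count and neither HFD library had one, but 1 and 2 counts lie under the 3 that a count of 0 allows, and the ranges of Cfd overlapped between diets. Retn, which encodes resistin, had 3 counts in LFD replicate 2 and 0 in the other 8 libraries. Lep, which encodes the satiety hormone leptin, had 2 counts in LFD replicate 2, 2 in KD replicate 4 and 0 in the other 7.

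The droplet protein genes were also highest in LFD replicate 2. Plin1, which encodes the protein that coats the droplet and controls lipase access, had 0, 7 and 0 counts in LFD, 0 and 0 in HFD, and 1, 0, 1 and 1 in KD. Cidec, which encodes a protein that fuses droplets, had 1, 14 and 3 counts in LFD, 0 and 7 in HFD, and 0, 1, 0 and 1 in KD. Libraries with 0 to 3 counts of a gene could not be told apart at this depth. A count of 0 allows up to 3 counts, and in HFD replicate 1 this floor corresponded to 0.150 CPM (counts scaled to a common library size by the trimmed mean of M-values, TMM).

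LFD replicate 2 carried 58 of the 91 counts of these 6 genes, or 63.7%, while it held 10.6% of all counts in the study. All 6 genes had a count in this library, and 5 of the 6 reached their highest number there, Lep being tied with KD replicate 4. The 6 genes together gave 3.22 CPM of raw library size in LFD replicate 2 (exact 95% interval 2.45 to 4.16, counting error only). The next library was HFD replicate 2, with 12 counts or 0.755 CPM on that scale (exact interval 0.390 to 1.32), and its interval lay below that of LFD replicate 2. LFD replicates 1 and 3 had 4 and 5 counts, HFD replicate 1 had 0, and the KD libraries had 6, 1, 1 and 4. By diet the sums were 67 counts in LFD, 12 in HFD and 12 in KD, and LFD held 9 counts without replicate 2. The summed level was 1.03 ± 1.36 CPM in LFD (SD, n = 3), 0.251 ± 0.356 in HFD (n = 2) and 0.195 ± 0.190 in KD (n = 4). Without replicate 2 the LFD mean was 0.240 CPM, so 1 library decided the higher LFD level. In whole-tissue RNA, fewer cells of a type and less RNA per cell cannot be told apart.

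**Figure D1:**
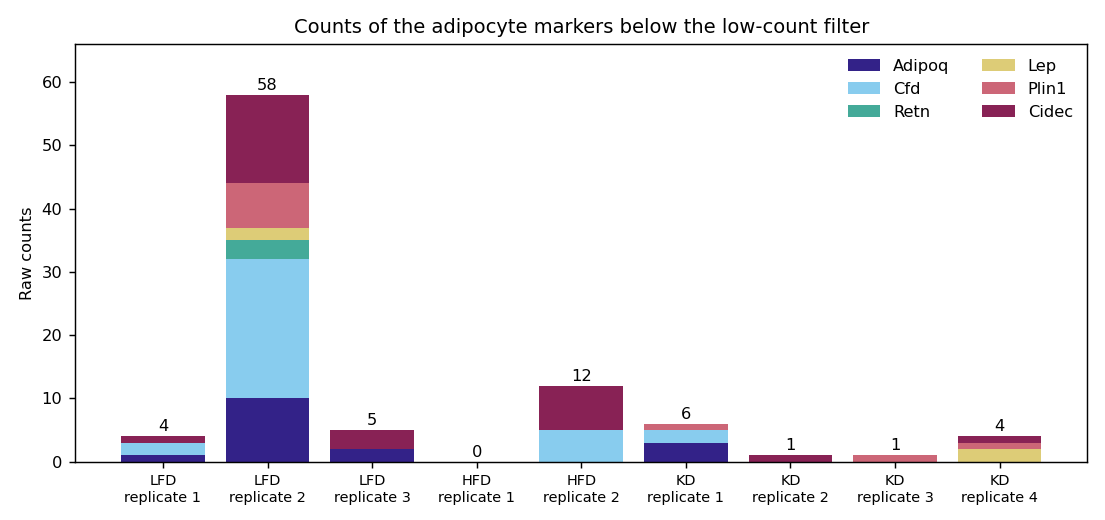
Raw counts of the 6 genes below the filter in each of the 9 libraries, one bar per library divided by gene, grouped by diet. LFD replicate 2 reaches 58 counts, HFD replicate 2 reaches 12 and HFD replicate 1 is at 0.

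The library with most of these counts also had the highest level of B lymphocyte transcripts. The summed level of 10 B cell genes was 523, 1268 and 73.3 CPM in LFD replicates 1 to 3, 56.1 and 74.3 in HFD, and 26.1, 10.7, 6.41 and 11.9 in KD. Most of that sum was Ighm in every library, with 7393, 25103 and 939 counts in LFD replicates 1 to 3. Relations with the sum are thus largely relations with that gene. Of the 6 genes, Cfd had the highest Pearson r with this sum, 0.766 over the 9 libraries (exact permutation p = 0.0132, and Spearman rho = 0.712, exact p = 0.0397). Cidec had the highest rho, 0.763 (exact permutation p = 0.0239), with r = 0.699 (exact p = 0.0363). Neither passed adjustment over the 79 relations computed (for Cfd adjusted p = 0.282 for r and 0.361 for rho, exact permutation), and r of Cfd was 0.408 without LFD replicates 1 and 2. The part of B cells or of tissue around the islets in these counts was not tested. A list of 8 skeletal muscle genes summed to 0.657 to 2.32 CPM over the 9 libraries, and a list of 8 hepatocyte genes to 413 to 1234 CPM. The hepatocyte sum was mostly Ttr, which islet cells also make and which averaged 702 CPM in LFD and 629 in KD. For KD against LFD the hepatocyte list had a median log2 difference of -0.77, beside -1.20 for Car3. In edgeR 2 of the 8 hepatocyte genes (Fgb and Apob) were lower and 0 higher, against 3.14% and 0.981% of all genes. The part of muscle or liver in the Car3 counts was not tested.

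The group near 0 was also compared with Adipoq itself, to ask whether its genes varied together by library. Cfd and Adipoq had r = 0.774 (exact permutation p = 0.0195, adjusted p = 0.308) and rho = 0.58 (exact p = 0.0956). Without LFD replicate 2 and KD replicate 1 the value was 0.08, so the relation rested on those libraries. They held 10 and 3 of the 16 Adipoq counts. With so few counts elsewhere, leaving them out cannot show whether the genes varied together in the other libraries. Plin1 and Adipoq had r = 0.72 (exact p = 0.0380), which became -0.37 without the same libraries. Pparg went the other way, with r = -0.71 against Adipoq (exact p = 0.0294) and -0.22 without them. None of these relations passed adjustment over the 79.

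On a scale of CPM per kilobase of the longest protein-coding transcript, Fabp4 stood at 13.3 ± 4.39 over the 9 libraries (SD), Lpl at 9.23 ± 1.37, Pparg at 3.26 ± 0.505 and Car3 at 1.05 ± 0.737. The ranges of Fabp4 (7.01 to 18.5) and Lpl (7.55 to 11.8) overlapped. Both genes were measured in the same 9 libraries, and their order within each library was not tested. Lpl and Pparg (2.53 to 4.10) did not overlap, nor did Pparg and Car3 (0.139 to 2.48). Below them came Cfd at 0.178 ± 0.346, Cidec at 0.0783, Adipoq at 0.0719, Plin1 at 0.0207, Retn at 0.0131 and Lep at 0.00611, all of whose ranges began at 0. These levels describe the preparations over all diets.

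Fabp4 encodes the fatty acid carrier of fat cells and capillaries. Its level was 13.6, 10.9 and 6.28 CPM in LFD replicates 1 to 3, 16.5 and 14.6 in HFD, and 16.6, 13.2, 6.32 and 9.50 in KD. The lowest values were LFD replicate 3 and KD replicate 3, and both HFD libraries lay above all 3 LFD libraries. Lpl encodes the lipase that frees fatty acids from circulating lipoproteins. It was the most counted gene of the list, with 6399 counts or 63.3% of the total, at 36.0, 36.4 and 39.5 CPM in LFD, 31.1 and 32.2 in HFD, and 48.6, 36.2, 44.9 and 37.0 in KD. Lpl was lowest in both HFD libraries, and KD overlapped LFD.

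Pparg encodes the nuclear receptor at the head of fat cell differentiation. It gave 6.62, 5.38 and 7.18 CPM in LFD, 7.95 and 8.72 in HFD, and 5.99, 7.08, 5.88 and 7.57 in KD. The HFD libraries were again outside the range of both other diets, here on the high side. Car3 encodes a carbonic anhydrase that is abundant in fat. Its level was 2.39, 4.17 and 1.64 CPM in LFD, 0.550 and 2.60 in HFD, and 0.233, 2.32, 0.802 and 1.21 in KD. Car3 varied most among the 4 in proportion to its level, was highest in LFD replicate 2, and overlapped between all diets.

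**Figure D2:**
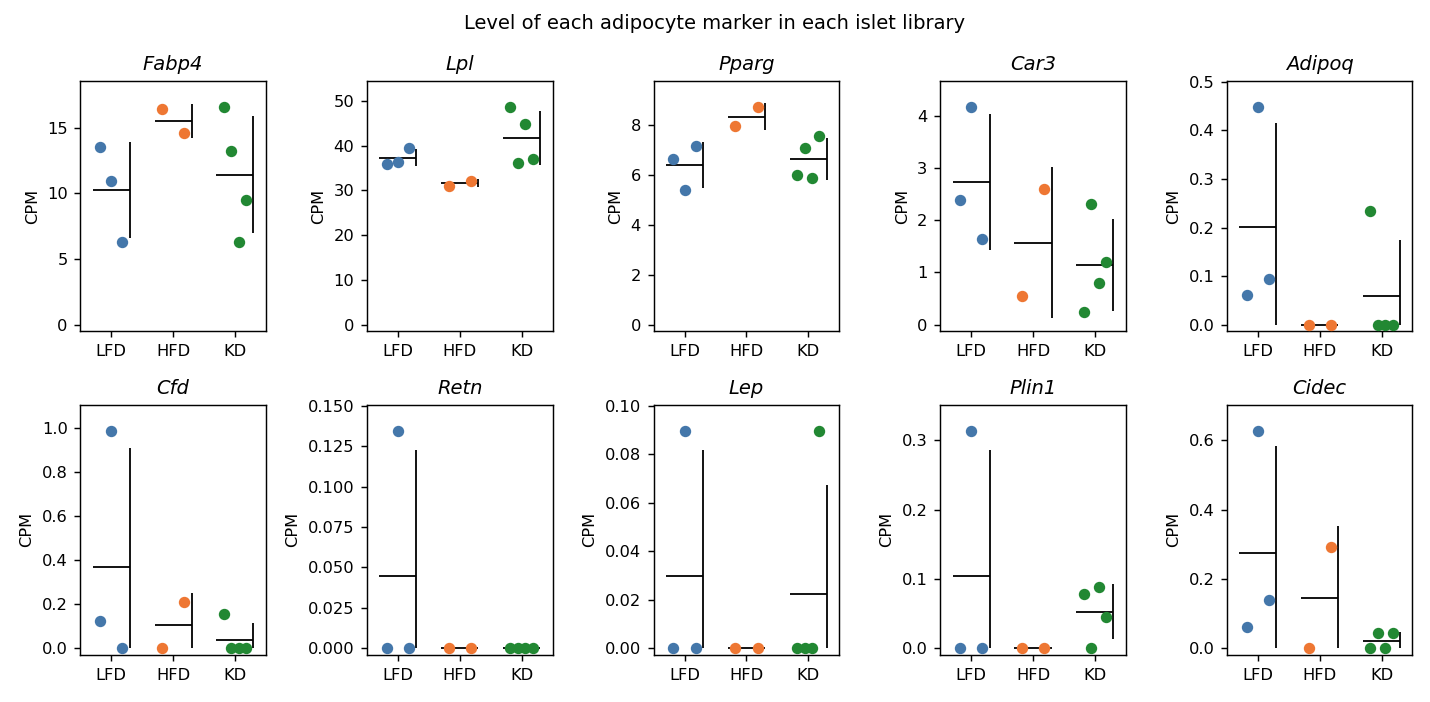
TMM-scaled CPM of the 10 markers, one panel per gene with its own scale, with a point per library, a horizontal line at the mean and a vertical line for the SD per diet, cut at 0 (LFD n = 3, HFD n = 2, KD n = 4). Both HFD points lie above LFD for Fabp4 and Pparg and below it for Lpl, while all diets overlap for Car3.

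For KD against LFD, which asks what the ketogenic diet changed relative to the control diet, none of the 4 tested genes passed an adjusted p of 0.05 in edgeR. Over all 18548 genes tested, 764 (4.12%) passed, 182 of them higher (0.981%) and 582 lower (3.14%). At an unadjusted p under 0.05 the numbers were 0 of the 4 genes and 4215 of all genes (22.7%), while DESeq2 called 0 of the 4 and 1773 of all genes and limma-voom 0 and 1873. Fabp4 averaged 11.4 ± 4.45 CPM in KD and 10.3 ± 3.68 in LFD, a log2 difference of 0.16 (SE 0.32, 95% interval -0.55 to 0.87, edgeR adjusted p = 0.811). Lpl averaged 41.7 ± 6.07 CPM in KD and 37.3 ± 1.94 in LFD, a log2 difference of 0.16 (SE 0.13, interval -0.13 to 0.45, edgeR adjusted p = 0.514). Both intervals include 0, and that of Lpl is the narrowest of the 4.

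Pparg averaged 6.63 ± 0.830 CPM in KD and 6.39 ± 0.921 in LFD, a log2 difference of 0.06 (SE 0.19, interval -0.36 to 0.48, edgeR adjusted p = 0.887). Car3 had the widest gap, with 1.14 ± 0.881 CPM in KD and 2.73 ± 1.30 in LFD, a log2 difference of -1.20 (SE 0.65, interval -2.64 to 0.23, edgeR adjusted p = 0.3004). Its difference was -0.75 without LFD replicate 2 and -1.81 without KD replicate 2. The library ranges overlapped for all 4 genes, where 19.7% of all genes did not overlap (9.69% higher in KD and 10.1% lower). The median log2 difference was 0.11 over the 4 and -0.02 over all genes. When library totals were used without TMM scaling, the median of all genes was -0.59, and Fabp4, Lpl and Pparg turned below 0. Relative to that median they stood at 0.15, 0.12 and 0.11, and Car3 at -1.10.

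For HFD against LFD, 0 of the 4 genes and 0% of all genes passed in edgeR in either direction. At an unadjusted p under 0.05 the numbers were 0 of the 4 and 1853 of all genes (9.99%), while DESeq2 called 0 of the 4 and 268 of all genes and limma-voom 0 and 11. Fabp4 averaged 15.5 ± 1.30 CPM in HFD, a log2 difference of 0.60 from LFD (SE 0.38, interval -0.22 to 1.43, edgeR adjusted p = 0.600). Pparg averaged 8.33 ± 0.539 CPM, a log2 difference of 0.38 (SE 0.23, interval -0.11 to 0.88, edgeR adjusted p = 0.578). Lpl averaged 31.6 ± 0.818 CPM, a log2 difference of -0.24 (SE 0.16, interval -0.59 to 0.11, edgeR adjusted p = 0.623). The libraries of these 3 genes did not overlap between the diets, against 27.5% of all genes (13.4% higher in HFD and 14.1% lower). Car3 averaged 1.57 ± 1.45 CPM in HFD and overlapped LFD, with a log2 difference of -0.78 (SE 0.78, interval -2.51 to 0.94, edgeR adjusted p = 0.741). That difference was -2.30 without HFD replicate 2, -0.08 without HFD replicate 1 and -0.34 without LFD replicate 2, and that of Fabp4 was 0.35 without LFD replicate 3. The median log2 difference was 0.07 over the 4 genes and -0.00 over all genes.

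In the comparison of the KD with the HFD libraries, edgeR called 0 of the 4 genes, and 0% of all genes passed in either direction. Lpl alone had an unadjusted p under 0.05, against 22.7% of all genes, and DESeq2 called 0 of the 4 and 1518 of all genes and limma-voom 0 and 0. The log2 difference of Lpl was 0.40 (SE 0.15, interval 0.06 to 0.73, edgeR adjusted p = 0.167, from an unadjusted 0.0248), with all 4 KD libraries above both HFD libraries. Pparg, whose KD libraries all lay below those of HFD, had a log2 difference of -0.32 (SE 0.21, interval -0.79 to 0.14, edgeR adjusted p = 0.384). Non-overlap was found for these 2 of 4 genes and for 33.9% of all genes (15.7% higher in KD and 18.2% lower). Fabp4 had a log2 difference of -0.44 (SE 0.35, interval -1.22 to 0.34, edgeR adjusted p = 0.481) and Car3 of -0.42 (SE 0.74, interval -2.05 to 1.22, edgeR adjusted p = 0.774). The direction of Car3 turned to 1.11 without HFD replicate 2. The 3 comparisons share their groups with each other, and their values are given side by side only. The median was -0.37 over the 4 genes and -0.04 over all genes.

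**Figure D3:**
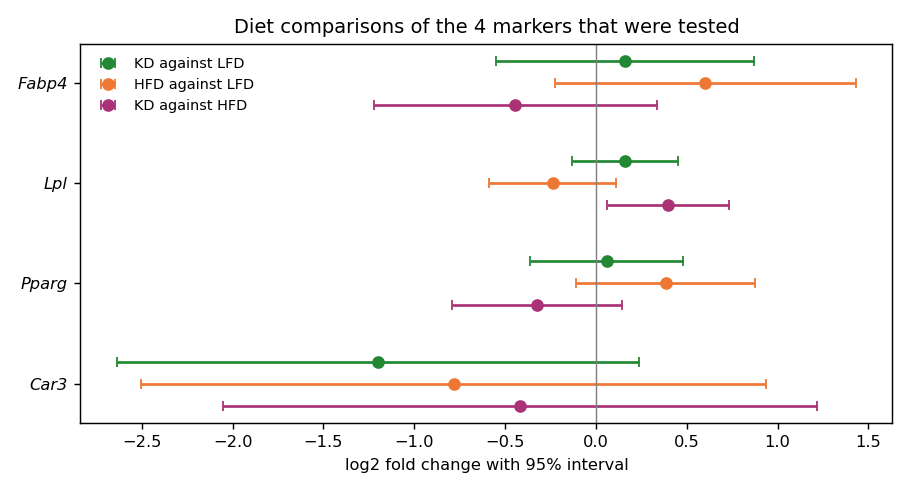
Log2 fold changes of Fabp4, Lpl, Pparg and Car3 in the 3 diet comparisons, with 95% intervals from the edgeR fit. All intervals include 0 except that of Lpl in KD against HFD, which runs from 0.06 to 0.73 and has an adjusted p of 0.167.

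The 6 genes near 0 were also placed in a fit with no filter on low counts, in which 31086 genes were tested. Their adjusted p ranged from 0.250 to 1 over the 3 comparisons. Before adjustment, the smallest edgeR values were 0.0283 for Cidec and 0.0329 for Cfd in KD against LFD, and 0.0426 for Adipoq in HFD against LFD. LFD replicate 2 held 14 of the 18 LFD counts of Cidec, 22 of the 24 of Cfd and 10 of the 13 of Adipoq. Summed over all 10 genes, the level was 57.7 ± 2.48 CPM in LFD (SD, n = 3), 57.3 ± 1.86 in HFD (n = 2) and 61.0 ± 7.37 in KD (n = 4), and the ranges of the diets overlapped.

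The contents of the preparations differed between libraries. A list of 20 digestive enzyme genes of acinar cells took 14.9 to 35.1% of counts in LFD, 11.2 to 18.7% in HFD and 20.2 to 60.1% in KD. On TMM-scaled levels, Lpl had a positive relation with the level of that list (r = 0.775, exact permutation p = 0.0143). It had a negative one with a list of 10 beta cell genes (r = -0.777, exact p = 0.0134). On counts outside the acinar list, r of Lpl with the acinar list was 0.63. With unscaled totals Lpl was lowest in KD replicates 1 to 3, at 26.3, 30.5 and 27.8 CPM. Their acinar shares were the highest, at 60.1, 44.2 and 55.9%. Lpl was at 49.5 CPM in LFD replicate 3 and 48.4 in HFD replicate 2, where that share was lowest (14.9 and 11.2%). The direction of Lpl with the acinar list thus depended on the scaling. Most of the beta cell sum was Ins2, Ins1 and Iapp in every library. In LFD replicate 1 they had 579156, 160801 and 109887 counts, and G6pc2, the next, had 19017. Relations with the sum are thus largely relations with these hormone transcripts. Pparg had a positive relation with the beta cell list (r = 0.699, exact p = 0.0354). Its relation with a list of 10 endothelial genes was nearly equal (r = 0.693, exact p = 0.0397, and 0.57 without HFD replicate 1 and KD replicate 3). Against the acinar list Pparg gave r = -0.659 (exact p = 0.0567). Lpl and the acinar list gave r = 0.288 without KD replicates 1 and 3, so that relation rested on those libraries, while Lpl and Pparg kept -0.763 and 0.719 against the beta cell list without KD replicates 1 and 4. None passed adjustment over the 79 relations. With an acinar score as a covariate in the edgeR fit, the log2 difference of Lpl in KD against HFD went from 0.40 to 0.21 and that of Pparg from -0.32 to -0.05. In HFD against LFD, Lpl went from -0.24 to -0.16 and Pparg from 0.38 to 0.25. The other tested markers moved away from 0 in that comparison, Fabp4 from 0.60 to 0.89 and Car3 from -0.78 to -1.37. The part of acinar content in these differences was not tested.

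Among the relations with cell type lists, the largest r was that of Fabp4 with the summed level of 10 endothelial genes, such as Pecam1 and Cdh5, which mark the lining of vessels (r = 0.853, exact permutation p = 0.00402, and rho = 0.833, exact p = 0.00827). After adjustment over the 79 relations these became 0.282 and 0.361, so they did not pass. With HFD replicate 1 and KD replicate 3 left out r was 0.76, and with each diet's mean subtracted it was 0.884. The endothelial sum was 559, 465 and 431 CPM in LFD replicates 1 to 3, 804 and 745 in HFD, and 586, 613, 397 and 550 in KD. HFD was highest in this sum as it was in Fabp4 on average.

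As a ratio within each library, Fabp4 gave 24.3, 23.5 and 14.6 counts per 1000 endothelial counts in LFD, 20.5 and 19.6 in HFD, and 28.3, 21.6, 15.9 and 17.3 in KD. The highest ratio was 1.94 times the lowest, against 2.64 times for the CPM of Fabp4. The mean ratio was 20.8 ± 5.38 in LFD, 20.04 ± 0.599 in HFD and 20.8 ± 5.56 in KD (SD), and the HFD libraries now lay inside the LFD range. With the diet means subtracted, Fabp4 had r = 0.995 with a list of 10 fibroblast genes, against 0.587 without that step. Against the macrophage list the ratio of Fabp4 was wider than its CPM, the highest being 3.19 times the lowest. It averaged 83.4 ± 10.4 counts per 1000 macrophage counts in LFD, 140.1 ± 37.5 in HFD and 179 ± 52.5 in KD (SD), and the macrophage sum was 81.4 to 142 CPM in LFD, 98.8 to 129 in HFD and 41.2 to 75.9 in KD. Which cells made the Fabp4 transcripts was not tested.

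**Figure D4:**
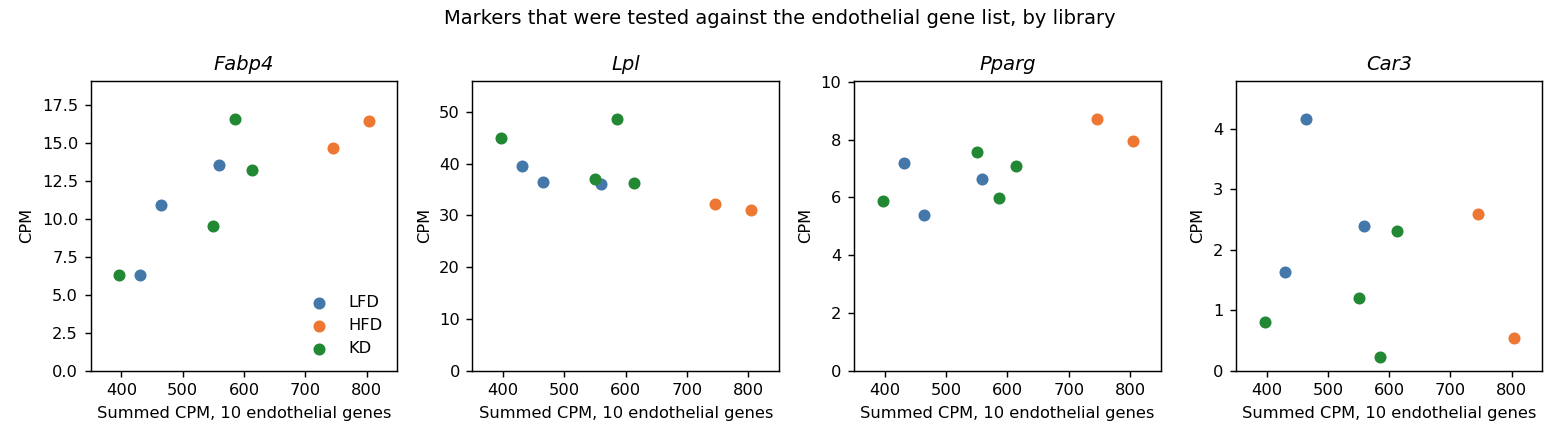
Levels of the tested markers against the summed level of 10 endothelial genes, a point per library coloured by diet. Fabp4 is higher where the endothelial sum is higher (r = 0.853 over 9 libraries), and HFD lies at the high end of the horizontal axis.

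The genes with the most similar pattern over the 9 libraries were found among 14843 genes by Pearson r of log2 CPM, as a description. For Fabp4 these were Pcdh12 (0.98), Rasip1 (0.98), Pald1 (0.96), Bmp6 (0.95) and Tmem200b (0.95). For Lpl they were Hdac3, Tmem267, Nsd3, Rffl and Gm49654, each at 0.96. For Pparg they were Fez2 (0.97), Ndufs1 (0.95), Pcnx4 (0.94), Rasal2 (0.94) and Cdk14 (0.94). For Car3 they were Nuak2 (0.92), P4ha2 (0.91), Lsm14a (0.91) and Rarg (0.91). For Adipoq, whose pattern rests on 16 counts, they were Limk2 (0.95), Arhgef1 (0.94), Arhgap39 (0.94), Rrnad1 (0.92) and Tstd1 (0.92).

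Other genes of fat cells were read from 7 further lists, whose median log2 differences for KD against LFD are set beside -0.02 over all genes tested. The medians were -0.06 for adipokines, 0.34 for droplet and lipolysis genes, 0.09 for lipid uptake and storage, 0.24 for differentiation factors, 0.22 for insulin and adrenergic signalling, 0.03 for brown fat genes and -0.41 for progenitor genes. Of 8 other adipokines 7 were tested, and none passed in edgeR in any comparison. The 3 with the highest levels were Rbp4, a retinol carrier (log2 difference 0.11 for KD against LFD, edgeR adjusted p = 0.822), Nampt, an enzyme of NAD synthesis (-0.38, adjusted p = 0.156), and Sfrp5, a secreted inhibitor of Wnt signalling (0.66, adjusted p = 0.0963). Itln1, the remaining adipokine, was at 0 counts in all 9 libraries. The direction of Rbp4 turned under unscaled totals (-0.35). Sfrp5 passed in 3 alternatives (adjusted p = 0.0435 with no filter and 0.0449 with the acinar covariate in edgeR, and 0.0483 in DESeq2), its adjusted p ran to 0.733 over the others, and its difference was 0.18 with unscaled totals.

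Over all genes tested, 0.981% were higher in KD than in LFD and 3.14% lower. Droplet and lipolysis genes had 1 gene higher and 0 lower among 11 tested of 12. This was Mgll, the lipase that completes triglyceride breakdown, at 34.9, 35.8 and 17.4 CPM in LFD, 46.3 and 41.9 in HFD, and 95.3, 59.0, 63.0 and 46.2 in KD. KD lay above LFD in every library, with a log2 difference of 1.164 (SE 0.29, edgeR adjusted p = 0.0496). That call was lost in 15 of the 20 alternatives. Over all 20 the adjusted p ran from 0.00261 (replicate block, still called) to 0.262 (unscaled totals), both in edgeR. Adig, which is named for adipogenesis and fell below the filter, had 9 counts in all, 5 of them in LFD replicate 2.

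Of 13 genes for lipid uptake and storage, all tested, 1 was higher in KD, against 0.981% of all genes. Gpd1, which makes the glycerol backbone of triglyceride, was at 15.9, 15.2 and 14.0 CPM in LFD, 12.4 and 14.2 in HFD, and 23.2, 21.4, 24.0 and 21.3 in KD. The log2 difference was 0.58 (SE 0.13, edgeR adjusted p = 0.0358). The call was lost in 11 of the 20 alternatives, among them unscaled totals, under which the difference was -0.01 and the median of all genes -0.59.

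Among 10 factors of adipocyte differentiation, all tested, 1 was lower in KD, against 3.14% of all genes. Cebpd, an early C/EBP factor that also responds to inflammation, was at 22.7, 24.2 and 16.2 CPM in LFD, 8.30 and 8.59 in HFD, and 9.88, 10.2, 6.50 and 6.27 in KD. Its log2 difference was -1.36 (SE 0.22, edgeR adjusted p = 0.0110), and it passed in all 20 alternatives. Of 8 genes of fat progenitors, all tested, 1 (Icam1) was lower in KD, against the same 3.14% of all genes. Icam1 encodes an adhesion molecule that leukocytes and endothelium also carry, and it stood at 22.2, 24.5 and 11.4 CPM in LFD, 9.75 and 10.8 in HFD, and 7.003, 7.13, 3.74 and 5.78 in KD. Its log2 difference was -1.70 (SE 0.28, edgeR adjusted p = 0.0115), also passing in all 20 alternatives. In the same comparison the B cell list was lower in KD for 10 of its 10 genes. The macrophage list had 1 of 10 genes lower and a median of -0.64, and the fibroblast list 0 of 10 and a median of -0.84. Of the 10 fibroblast genes 7 had an unadjusted edgeR p under 0.05, against 22.7% of all genes. The part of these cells in the lower Cebpd, Icam1 and progenitor values was not tested.

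Of 7 genes for insulin and adrenergic signalling 6 were tested and none passed. The 3 with the highest levels gave log2 differences for KD against LFD of 0.26 (Insr, the insulin receptor), 0.19 (Pde3b, a phosphodiesterase) and -0.31 (Irs1, an insulin receptor substrate). Adrb3, the adrenergic receptor typical of fat, had 1 count in all. Of 7 brown fat genes 3 were tested and none passed. Ucp1, the uncoupling protein that defines brown fat, was at 0 counts in all 9 libraries, and among those below the filter Cox8b had 3 counts, Elovl3 8 and Cox7a1 46. Prdm16 and Ppargc1a, which are also made outside fat, gave 0.03 and 0.20. The direction turned under unscaled totals for Insr, Pde3b, Prdm16 and Ppargc1a. In HFD against LFD and in KD against HFD, none of the genes on the 7 lists passed in edgeR.

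**Figure D5:**
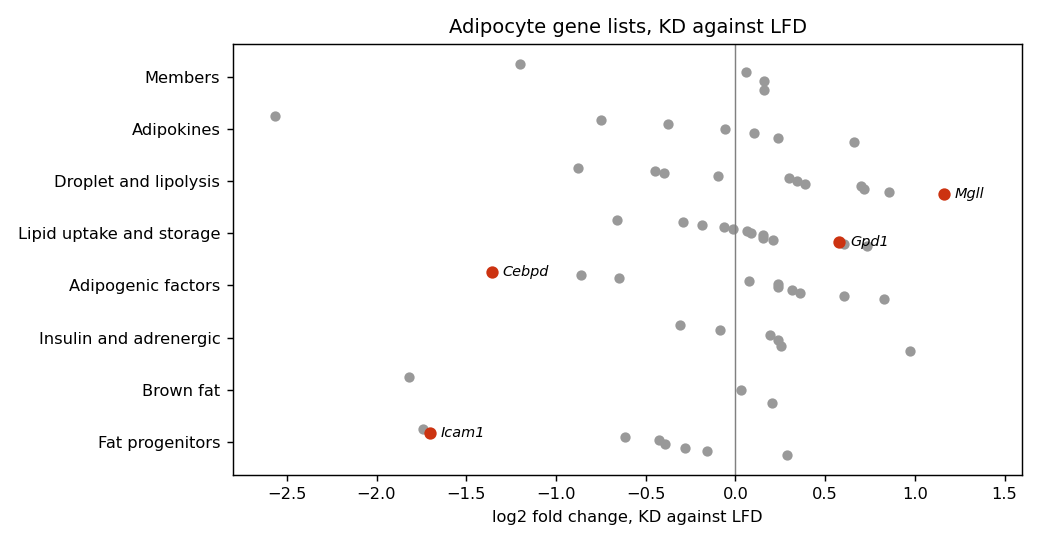
Log2 fold changes of KD against LFD for the 4 tested markers and 7 other lists of fat genes, a point per gene, with genes at an adjusted p under 0.05 named. Only Mgll, Gpd1, Cebpd and Icam1 are past the threshold, and none of the 4 markers is.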

How the data were processed

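Polyadenylated RNA from islets was sequenced in 9 libraries. The authors deposited raw counts per Ensembl gene, with whole numbers and 1 column per sample, matched by the identifier in each title. Libraries were made with a directional kit, per the labels' protocols. Cutadapt 1.16, STAR 2.7.9a, featureCounts 1.6.3, DESeq2 1.40.2 and the builds GRCm39 and mm39 are named in the submitters' processing notes, without roles. The annotation and strand setting are not given in the sources used here. How reads of overlapping or near-identical genes were assigned is therefore unknown. Without stated dates or batches, an effect of batch cannot be told apart from one of diet.

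Symbols were found for 51948 of 56941 identifiers in GENCODE M21, which also gave transcript lengths. Counts were fitted with edgeR 4.0.16 in R 4.3.3 (filterByExpr by diet, minimum count 10 and total 15, TMM, robust quasi-likelihood, all 9 libraries, two-sided), which left 18548 genes. P-values were adjusted by Benjamini-Hochberg over all genes, with a threshold of 0.05. TMM factors ran from 0.542 to 1.50. Standard errors are the log2 change over the square root of F. Relations between genes used log2 CPM with a prior count of 2 and two-sided exact permutation tests, adjusted over 79 relations. The procedure was tested on simulated data.

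The alternatives were DESeq2 1.42.0, limma-voom (limma 3.58.1) with quality weights, DESeq2 size factors, TMM without acinar and islet hormone genes, no filter, a filter of 5 CPM in 3 libraries, only the groups compared, an acinar covariate, the replicate number as a block and each library left out. Unscaled totals and scaling to counts outside the acinar list were added after seeing the data, as were the ratio of Fabp4 to endothelial counts and the summed level of genes below the filter. Relations with cell type lists after subtracting diet means, without the 2 farthest libraries or on counts outside the acinar list were also added then. The members and lists were chosen with earlier results of these data known. The genes named were the 10 markers and, per list, those past the threshold (up to 5 higher and 5 lower), or the 3 most expressed where none passed. For Adipoq, Fabp4, Lpl, Pparg and Car3, the 5 most similar genes with a mean of at least 1 CPM were also named, except 1 gene that the rule names and that is not reported here. Adig, Itln1, Ucp1, Cox8b, Elovl3 and Adrb3 were named after their values were seen.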

Additional observations from a re-analysis of the deposited data

Results flagged for a closer look

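In the KD group of 4 libraries, 3 of 30 values examined were flagged as far from the others. Each flagged gene had counts in only 1 KD library, and the rule flags any such value, however small. A chance rate of 1 in 20 groups therefore does not apply to them. Adipoq reached 0.233 CPM in KD replicate 1, from 3 counts, and Cfd reached 0.156 CPM in the same library, from 2 counts. Lep reached 0.0896 CPM in KD replicate 4, from 2 counts. The other 3 KD libraries had 0 counts of each gene. All 3 values are at or under the 3 counts that a count of 0 allows, so a difference between these libraries was not detectable at this depth.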

How the results depend on the processing

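No marker was called in any of the 3 comparisons under any of the 20 alternatives, the replicate block included (0 called in each). Deviations of same-numbered libraries had r from -0.02 to 0.22 over 7 pairs, 1 over 0.1. Those of differently numbered libraries had r from -0.28 to 0.24 over 19 pairs. The HFD deviations mirror each other, so their values come with opposite signs (0.069 and -0.069 against LFD replicate 1). These values therefore cannot show whether the numbers pair the samples. Counts over all genes moved more. KD against LFD went from 764 to between 151 and 2003 (383 with the 5 CPM filter, 1345 with the acinar covariate, 1653 unscaled, 1773 in DESeq2, 1873 in limma-voom, 2003 with the block). HFD against LFD went from 0 to 81 with no filter, 194 without LFD replicate 3, 268 in DESeq2 and 395 with the block. KD against HFD went from 0 to 316 with no filter, 1518 in DESeq2, 1550 unscaled, 1793 without KD replicate 4 and 2320 with the block.

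Directions of log2 differences near 0 turned in KD against LFD. With unscaled totals these were Fabp4 (-0.43), Lpl (-0.47), Pparg (-0.48), Gpd1 (-0.011), Rbp4 (-0.35), Insr (-0.39), Pde3b (-0.33), Prdm16 (-0.68) and Ppargc1a (-0.32), and scaled outside the acinar list Pparg (-0.067), Rbp4 (-0.016) and Prdm16 (-0.13). The replicate block turned Pparg (-0.0059) and Rbp4 (-0.15), the acinar covariate Fabp4 (-0.11) and Prdm16 (-0.62), limma-voom Fabp4 (-0.0074) and Prdm16 (-0.18), and the 5 CPM filter Prdm16 (-0.026). Leaving out 1 library gave -0.097 to 0.40 for Fabp4 (below 0 without LFD replicate 3 or KD replicate 1), and -0.053 to 0.15 for Pparg and -0.13 to 0.26 for Rbp4 (both below 0 without LFD replicate 2 or KD replicate 4). It gave -0.18 to 0.25 for Prdm16 (below 0 without LFD replicate 3, KD replicate 1 or KD replicate 3). In KD against HFD, Car3 turned with the acinar covariate (0.60) and limma-voom (0.14), ran from -1.12 to 1.11 with 1 library left out (above 0 without HFD replicate 2), and Lpl turned with unscaled totals (-0.44). The cause was not tested.

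The summed level of the 10 markers was 68.1 CPM in LFD, 78.4 in HFD and 47.3 in KD with unscaled totals, and 91.3, 91.8 and 87.3 on counts outside the acinar list. Leaving out 1 library gave 56.8 to 59.1 in LFD, 56.0 to 58.7 in HFD and 57.4 to 62.9 in KD. With diet means subtracted, a step added after seeing the data, 2 relations with cell type lists passed adjustment instead of 0 (Fabp4 with the endothelial and fibroblast lists). That permutation exchanged deviations between diets, although the deviations within a diet sum to 0 and are not freely exchangeable. Its p-values can therefore be too small, and whether these 2 relations pass cannot be decided from them. The 5 CPM filter left no value for Car3. Depth limits the 6 genes near 0, which had at most 22 counts in any library.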
